A study of Mus musculus with 8 samples.

Results

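Slit ligands, Robo receptors and the srGAP proteins that act behind Robo were examined in amygdalar intercalated cells of the mouse embryo with and without intact Tshz1, a zinc finger transcription factor gene. The set was chosen by name, with earlier results of these data known. It holds 9 genes of the 32543 in the expression tables: Slit1, Slit2 and Slit3, Robo1, Robo2 and Robo3, and Srgap1, Srgap2 and Srgap3. Intercalated cells are small clusters of GABAergic neurons that lie around the basolateral amygdala. RNA was sequenced from GFP-positive cells sorted at E16.5, in 4 control libraries (Tshz1 GFP/+) and 4 knockout libraries (Tshz1 GFP/RA). Both genotypes carry the GFP allele of Tshz1, so the controls keep a single Tshz1 allele without GFP, and the labels do not say what the RA allele lacks. The sort itself relies on the Tshz1 reporter. All mice were on an outbred background, each library pooled embryos of a single genotype, and nothing in the labels makes the pools separate litters, so a p-value here reflects variation among pools only. The design text mentions triplicates, whereas 4 libraries per genotype are labelled and all were used. A prefix in each title (NX, NY, QT or RM) is shared by a control and a knockout library and is not explained in the labels.

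Slits are large secreted proteins that bind the immunoglobulin domains of Robo receptors, with heparan sulphate as a helper in the complex. The usual outcome is repulsion: growth cones and migrating neurons turn away from a Slit source, and in the embryonic forebrain this pathway steers axon tracts and the migration of GABAergic neurons. srGAPs bind the cytoplasmic part of Robo, act on the actin cytoskeleton through their GAP domain and bend membranes through their F-BAR domain.

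Libraries held between 5785612 and 14535867 expected counts, so that 3 counts, taken as the floor of detection, correspond to 0.186 to 0.545 CPM (counts relative to library size, corrected for composition). Control libraries held 381 ± 115 CPM of Tshz1 and knockout libraries 79.1 ± 29.4 CPM (SD, n = 4 each), with no overlap (exact two-sided permutation p = 0.0286, the smallest that 4 against 4 libraries can give). Its log2 fold change was -2.27 (SE 0.30; edgeR, Benjamini-Hochberg adjusted p = 0.0388), and this call was lost when any library other than knockout NX or control NY was left out. Markers of the labelled cell type were present, led by Meis2 (mean 675 TPM, a level scaled to gene length and library total) among intercalated cell genes and Gad2 (462 TPM) among GABAergic genes. The 7 intercalated cell markers, Tshz1 among them, summed to 855 to 1807 TPM in control and 490 to 1040 TPM in knockout libraries. The sorted material also held other RNA. Radial glia and astrocyte markers, led by Fabp7 (mean 927 TPM, above Meis2 and Gad2), summed to 172 to 1635 TPM in control and 434 to 1570 TPM in knockout libraries. In prefixes NY and RM this sum lay above the intercalated cell sum in both genotypes. In the RM knockout library it was 1570 against 490 TPM. Pallial glutamatergic markers, led by Neurod6, ran from 33.6 to 267 TPM and from 154 to 423 TPM in the same order, and dividing cell markers, led by Top2a, from 36.3 to 226 TPM and from 39.7 to 395 TPM. The summed microglial markers, led by C1qc, ran from 4.01 to 98.8 TPM and from 15.2 to 37.6 TPM, those of the oligodendrocyte lineage, led by Olig1, from 0.52 to 29 TPM and from 1.76 to 22.8 TPM, and those of vascular and meningeal cells, led by Cldn5, from 0.12 to 17.3 TPM and from 0.62 to 3.03 TPM. Red blood cell transcripts, with 2 of 4 listed genes in the files and Hbb-bs the higher, ran from 0.35 to 691 TPM and from 1.04 to 363 TPM. No gene of these lists that is in the files was at 0 in every library. In such bulk material, fewer cells of a type and less RNA per cell cannot be told apart.

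Of the 9 genes, 8 passed the filter on low counts, and Robo3 did not. Slit3 had the largest difference: it was 2.46-fold higher in knockout cells and its 4 knockout libraries lay above all 4 control libraries in CPM. Srgap2 was 1.49-fold higher, and Srgap1 had the opposite sign at 1.197-fold lower. Robo1 and Robo2 were higher in CPM, though not in TPM, in the knockout library of every prefix, by little in several of them, and Slit1 and Srgap3 stood nearly level. None of these differences passed adjustment over all genes: the quasi-likelihood test of edgeR called 0 of the 8 tested genes at a Benjamini-Hochberg adjusted p under 0.05, against 0.0353% of all 14157 tested genes (5 genes). DESeq2 and limma-voom also called 0 of the 8. At an unadjusted p under 0.05, edgeR had 2 of the 8, Slit3 and Srgap2, both higher in the knockout, against 3.62% of all tested genes. Groups did not overlap in CPM for 1 of the 8, Slit3, against 2.59% of all tested genes. The fitted difference was positive for 7 of the 8, with a median log2 fold change of 0.27, where all tested genes had 6999 positive and 7158 negative values and a median of -0.01.

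**Figure D1:**
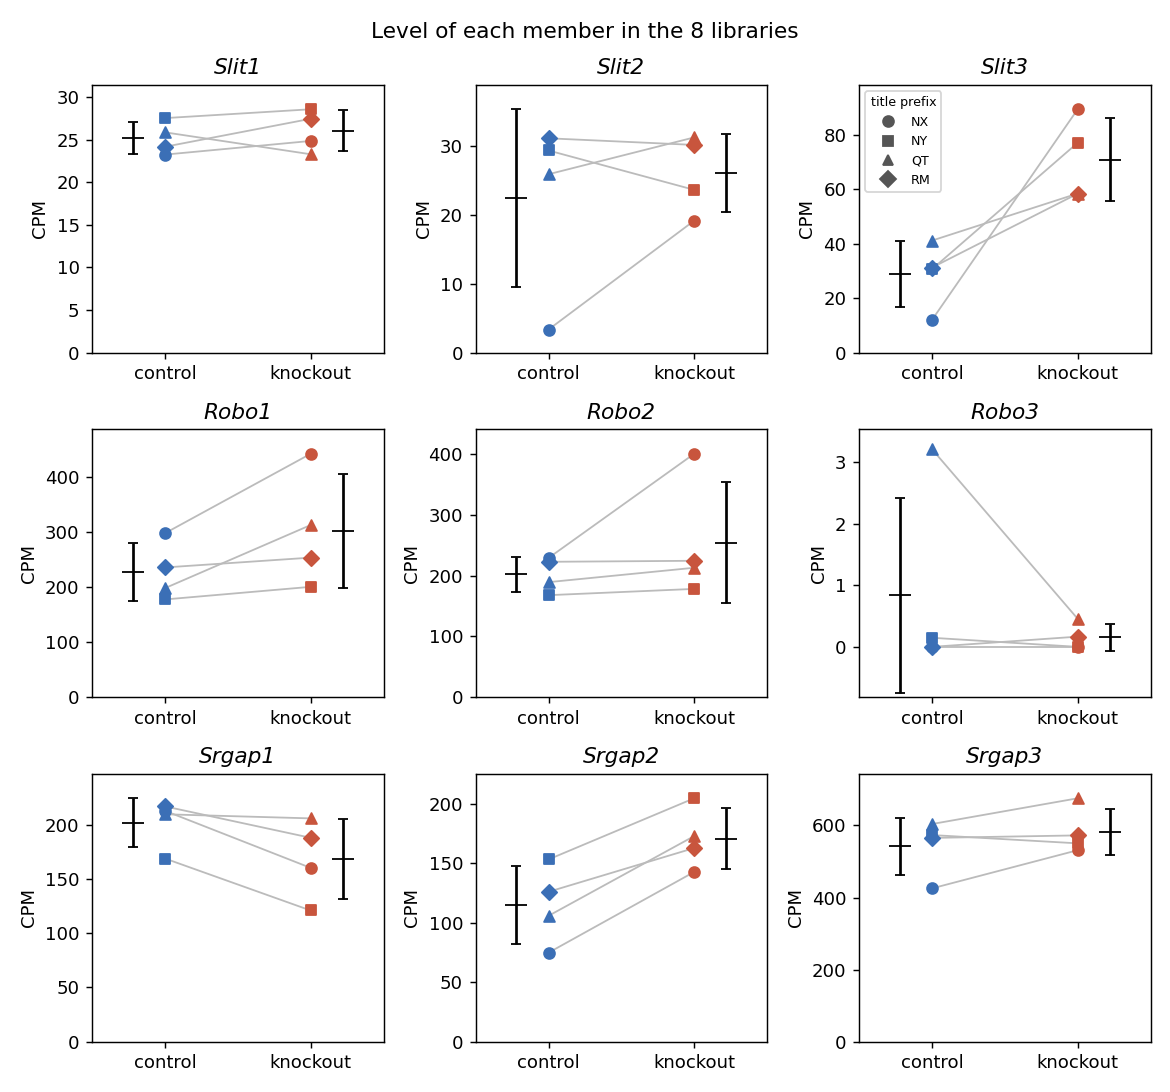
CPM of each of the 9 genes (vertical axis) in control (blue) and knockout (red) libraries; symbols and grey lines join libraries that share a title prefix, and black bars give the mean ± SD of 4 libraries. The red Slit3 points, from 58.4 to 89.4 CPM, all lie above the blue ones, from 12.03 to 41.2 CPM, while the other genes overlap.

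Of the ligands, Slit1 lies on the minus strand at chr19:41600257-41743665, Slit2 on the plus strand at chr5:47983138-48307733 and Slit3 on the plus strand at chr11:35121224-35708507 (GRCm38, GENCODE M21). All are protein-coding, with no exon shared with another annotated gene on either strand. Slit2 and Slit3 were lowest in the NX control library, and so were Slit1 (23.2 CPM, by little), Srgap2 (74.8 CPM) and Srgap3 (425 CPM). The promoters of Slit2 and Slit3 are shown for this shared low library beside fitted differences of unequal size, a contrast that was not tested. Each window spans the RefSeq transcript start and lies mostly upstream of it (GRCm38.p6, plus strand, chr5:47982905-47983204 and chr11:35121206-35121505). Capitals mark the GC box letters GGGCGG, or CCGCCC on the other strand, with overlapping matches counted separately.
Slit2 promoter: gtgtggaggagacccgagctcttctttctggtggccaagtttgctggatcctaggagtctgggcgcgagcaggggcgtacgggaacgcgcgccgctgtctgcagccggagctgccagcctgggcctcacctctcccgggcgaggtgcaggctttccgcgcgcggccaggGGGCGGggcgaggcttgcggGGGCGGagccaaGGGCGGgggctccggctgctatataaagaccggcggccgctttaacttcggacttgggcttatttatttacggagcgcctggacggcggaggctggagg
Slit3 promoter: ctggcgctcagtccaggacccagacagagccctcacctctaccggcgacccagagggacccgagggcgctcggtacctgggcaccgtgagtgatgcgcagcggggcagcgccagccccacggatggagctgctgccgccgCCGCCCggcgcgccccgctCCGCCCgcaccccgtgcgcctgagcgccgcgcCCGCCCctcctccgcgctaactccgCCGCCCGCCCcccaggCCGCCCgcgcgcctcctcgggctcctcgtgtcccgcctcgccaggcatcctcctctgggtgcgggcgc
The Slit3 window is 78.3% G or C, with 41 CpG dinucleotides and 6 GC box matches, and the Slit2 window is 68.0% G or C, with 30 CpG and 3 GC boxes. Over all 32851 RefSeq promoter windows of this length, the medians are 52.7% G or C and 7 CpG, and 35.7% hold a GC box. The TATAAA letters, searched on both strands, occur 1 time in the Slit2 window and 0 times in the Slit3 window, against 13.6% of all windows that hold them. The homeodomain core TAATTA occurs in neither (5.3% of all windows), and nor does the E-box CANNTG (72.3%). These are matches of letters, not mapped binding sites, and the Slit3 start that RefSeq uses lies 232 bases from the GENCODE gene start. Sequences matched by symbol for 8 of the 9 genes.

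Slit3 stood at 12.03 CPM in the NX, 30.6 in the NY, 41.2 in the QT and 31.3 in the RM control library. The knockout libraries held 89.4 (NX), 77.1 (NY), 58.5 (QT) and 58.4 CPM (RM). The lowest knockout value thus lay above the highest control value, and the low NX control and high NX knockout libraries made the NX ratio, 7.43, the widest. In the other prefixes the ratio of knockout to control was 2.52 (NY), 1.42 (QT) and 1.87 (RM). The means were 28.8 ± 12.2 and 70.8 ± 15.2 CPM (SD, n = 4 each). The log2 fold change was 1.30 (SE 0.33, 95% interval 0.59 to 2.02), with an unadjusted p of 0.00175 in edgeR, rank 42 of 14157, and a Benjamini-Hochberg adjusted p of 0.574. Across 21 alternatives the estimate ran from 0.92 to 1.61 and the adjusted p from 0.0544 (DESeq2) to 1.00, so that the direction held in each and the call was reached in none. On the deposited TPM scale the groups touched: the RM knockout library, at 13.8 TPM, lay below the QT control library, at 16.48 TPM, although each knockout library was still above the control of its own prefix.

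The NX control library, lowest in Slit3, also had the lowest sums of pallial (33.6 TPM), dividing cell (36.3 TPM), radial glia and astrocyte (172 TPM) and microglial (4.01 TPM) markers, and the highest sums of intercalated cell (1807 TPM) and GABAergic (1510 TPM) markers. Without it the log2 fold change of Slit3 was 1.05, and without both NX libraries it was 0.92. The NX knockout library, highest in Slit3, held more pallial (180 TPM), radial glia and astrocyte (434 TPM) and microglial (15.9 TPM) marker RNA than the NX control library, a similar dividing cell sum (39.7 TPM), and less intercalated cell (1040 TPM) and GABAergic (1182 TPM) marker RNA. In the other prefixes the dividing cell sum was higher in knockout than in control libraries, at 390 against 153 TPM (NY), 395 against 226 TPM (QT) and 211 against 95.3 TPM (RM). The other sums varied by prefix. Microglial sums were lower in the knockout, at 37.6 against 61.6 (NY), 15.2 against 46.4 (QT) and 24.3 against 98.8 TPM (RM). Pallial sums were 197 against 235 (NY), 423 against 267 (QT) and 154 against 127 TPM (RM). Radial glia and astrocyte sums were 1328 against 1635 (NY), 916 against 910 (QT) and 1570 against 1407 TPM (RM). GABAergic sums were 983 against 847 (NY), 1072 against 1294 (QT) and 673 against 901 TPM (RM). The intercalated cell sum was lower in the knockout library of all 4 prefixes. It includes the disrupted gene Tshz1, at 147 ± 62.8 TPM in control and 30.4 ± 18.8 TPM in knockout libraries (SD, n = 4 each). Part of this fall was therefore set by genotype, and no sum without Tshz1 was taken. Of its 7 markers 7 were fitted lower, against 7158 of 14157 tested genes, and 1 of them (Tshz1) was called by edgeR. The part of these shifts in the Slit3 difference was not tested.

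**Figure D2:**
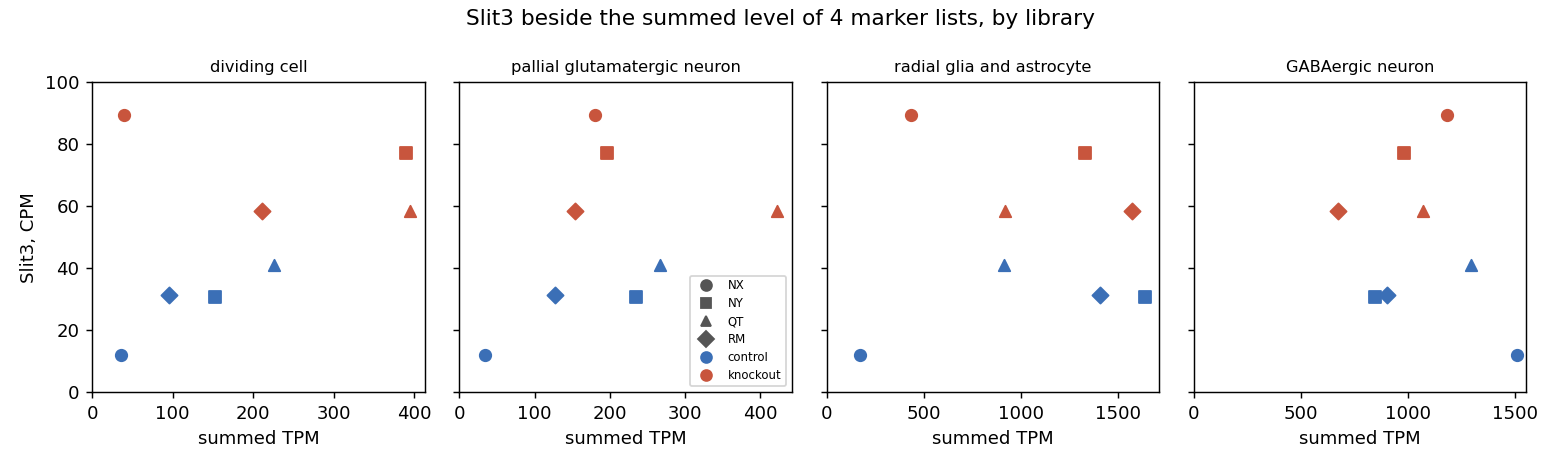
Slit3 level (vertical axis, CPM) against the summed level of 4 marker lists (horizontal axes, TPM) in the 8 libraries, with colour for genotype and symbol for title prefix. The NX control and knockout libraries have the lowest and highest Slit3 (12.03 and 89.4 CPM), with dividing cell sums of 36.3 and 39.7 TPM, pallial sums of 33.6 and 180 TPM, radial glia and astrocyte sums of 172 and 434 TPM and GABAergic sums of 1510 and 1182 TPM.

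Slit2 had a single very low library. Control libraries held 3.35 (NX), 29.3 (NY), 25.9 (QT) and 31.1 CPM (RM). Those of the knockout held 19.1 (NX), 23.6 (NY), 31.2 (QT) and 30.1 CPM (RM). The NX control library was far below the rest, and the NX and NY knockout libraries lay below the other 3 control libraries. The means were 22.4 ± 12.9 and 26.0 ± 5.68 CPM (SD, n = 4 each), with a log2 fold change of 0.22 (SE 0.50, 95% interval -0.87 to 1.30). Without the NX control library, the log2 fold change of Slit2 was -0.15. Its interval admits more than a doubling, so these data do not show that Slit2 stayed level.

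Slit1, the ligand that is best known from neurons, had the tightest values of the family. Control libraries held 23.2 (NX), 27.5 (NY), 25.9 (QT) and 24.2 CPM (RM). Those of the knockout held 24.9 (NX), 28.6 (NY), 23.3 (QT) and 27.5 CPM (RM). The ranges overlapped over most of their extent, at means of 25.2 ± 1.89 and 26.0 ± 2.41 CPM (SD, n = 4 each). The log2 fold change was 0.05 (SE 0.22, 95% interval -0.43 to 0.52), and its sign turned without composition factors (-0.0092).

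The mix of ligands followed Slit3. Per length, on the TPM scale, Slit3 made up 33.1% (NX), 40.3% (NY), 50.9% (QT) and 39.0% (RM) of the summed Slit transcripts in control libraries. In knockout libraries it made up 70.6% (NX), 64.0% (NY), 56.3% (QT) and 54.2% (RM), with no overlap between genotypes. The mean share was 40.8% ± 7.42 in control and 61.3% ± 7.52 in knockout libraries (SD, n = 4 each). The share of Slit1 was 38.3% ± 14.95 in control and 21.5% ± 2.32 in knockout libraries, and shares within a family are not independent of each other. These shares were looked at after the Slit3 values were known and were not tested. The summed level of the 3 ligands was 25.1 ± 6.80 TPM in control and 42.8 ± 14.0 TPM in knockout libraries.

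**Figure D3:**
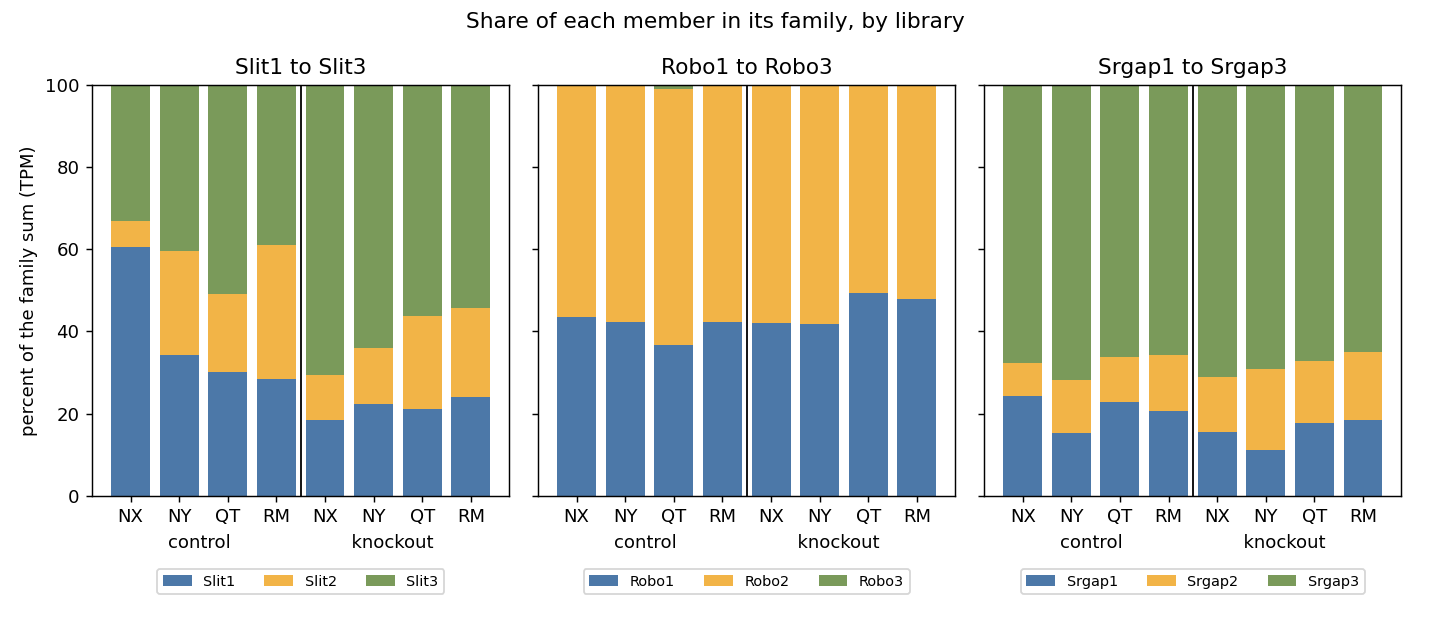
Share of each gene in the summed TPM of its family (vertical axis, percent), by library, control to the left and knockout to the right of the vertical line. The Slit3 segment (green, first panel) covers 33.1% to 50.9% of control bars and 54.2% to 70.6% of knockout bars, while Srgap3 (green, last panel) takes a mean of 67.9% and 68.1%.

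Robo1 and Robo2 are the main Slit receptors of forebrain neurons. Both lie on chromosome 16, Robo1 on the plus strand at chr16:72308306-73046095 and Robo2 on the minus strand at chr16:73891839-74411825. Robo3, a divergent family member known for its part in midline crossing of hindbrain and spinal axons and for binding Nell2, lies on the minus strand at chr9:37415669-37433246.

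Robo1 stood at 298 (NX), 178 (NY), 198 (QT) and 236 CPM (RM) in control libraries. Knockout libraries held 442 (NX), 200.5 (NY), 313 (QT) and 254 CPM (RM). Every prefix had the higher CPM in the knockout, by 1.08 to 1.58 times, while the groups overlapped. The means were 227 ± 52.9 and 302 ± 104 CPM (SD, n = 4 each), with a log2 fold change of 0.41 (SE 0.26, 95% interval -0.15 to 0.98; unadjusted p = 0.14 in edgeR).

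Robo2 followed a like pattern with a single high library. Control libraries held 229 (NX), 168 (NY), 189 (QT) and 223 CPM (RM). Those of the knockout held 400.3 (NX), 178 (NY), 213 (QT) and 224 CPM (RM). Only the NX knockout library lay outside the control range. The means were 202 ± 28.8 and 254 ± 99.6 CPM (SD, n = 4 each), with a log2 fold change of 0.33 (SE 0.25, 95% interval -0.22 to 0.88; unadjusted p = 0.219 in edgeR). Without the NX knockout library the log2 fold change was 0.02 for Robo2 and 0.17 for Robo1. Without both NX libraries it was 0.09 for Robo2 and 0.33 for Robo1. The size for Robo2 thus rested largely on the NX knockout library. For Robo1 it did so less: the NX control library was also the highest control, and the QT ratio (1.58) exceeded the NX ratio (1.48). In TPM, both receptors were lower in the knockout than in the control library of prefix RM (ratios 0.884 for Robo1 and 0.705 for Robo2). This was not particular to them: every tested gene of the family had a lower RM ratio in TPM than in CPM. For Slit1 it was 0.867 in TPM and 1.14 in CPM, and for Srgap3 0.749 and 1.01. The composition factors used for CPM were 0.808 in the RM knockout and 0.953 in the RM control library. Per length, Robo2 exceeded Robo1 in all 8 libraries, by 1.30 (NX), 1.36 (NY), 1.69 (QT) and 1.36 times (RM) in control and by 1.38 (NX), 1.39 (NY), 1.03 (QT) and 1.09 times (RM) in knockout libraries.

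Robo3 was close to the limit of detection. Its expected counts were 0 (NX), 2 (NY), 42 (QT) and 0 (RM) in control libraries. In knockout libraries they were 0 (NX), 0 (NY), 3 (QT) and 1 (RM). A count of 0 allows up to 0.186 CPM in control NX, 0.545 CPM in control RM, 0.204 CPM in knockout NX and 0.248 CPM in knockout NY, counting error only. The QT control library, at 3.21 CPM, was the single library above its floor of 3 counts, and no difference between genotypes could be measured at this depth.

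The srGAPs share their domain plan and differ in what they do to membranes and migration. Srgap1 lies on the minus strand at chr10:121780991-122047315, Srgap2 on the minus strand at chr1:131285251-131527352 and Srgap3 on the minus strand at chr6:112717971-112947266. An exon of Srgap1 overlaps the annotated gene Gm48804 on the same strand, and an exon of Srgap3 overlaps Gm44081 on the opposite strand. The libraries do not mark strand, so strand cannot assign fragments from the Srgap3 overlap to either gene. In the Srgap1 overlap both genes lie on the same strand, which a strand mark would not separate. Expected counts of Srgap1 were whole in all 8 libraries.

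Srgap2, whose product promotes filopodia and slows the migration of cortical neurons, was the srGAP with the smallest p. Its promoter window (chr1:131527312-131527611, minus strand, GRCm38.p6) is shown for contrast with that of Slit3, the other gene with an unadjusted p under 0.05. It is 57.7% G or C, with 17 CpG and 2 GC boxes, in capitals.
Srgap2 promoter: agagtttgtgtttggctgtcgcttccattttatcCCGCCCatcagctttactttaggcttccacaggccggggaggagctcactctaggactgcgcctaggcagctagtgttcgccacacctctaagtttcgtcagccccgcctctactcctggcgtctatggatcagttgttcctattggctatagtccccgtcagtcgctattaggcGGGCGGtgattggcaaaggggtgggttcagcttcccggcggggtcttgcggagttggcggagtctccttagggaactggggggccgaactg
It holds 1 E-box and neither TATAAA nor TAATTA. Control libraries held 74.8 (NX), 153 (NY), 106 (QT) and 126 CPM (RM) of Srgap2, and knockout libraries 143 (NX), 205 (NY), 173 (QT) and 163 CPM (RM). The knockout was higher within every prefix, by 1.29 to 1.91 times, but the NY control library lay above the NX knockout library. The means were 115 ± 33.1 and 171 ± 25.8 CPM (SD, n = 4 each). The log2 fold change was 0.57 (SE 0.23, 95% interval 0.06 to 1.08), with an unadjusted p of 0.03 in edgeR, rank 309 of 14157, and a Benjamini-Hochberg adjusted p of 1.00. Without the NX control library, where Srgap2 was lowest, its log2 fold change was 0.41 (SE 0.22). In that fit 1 of the 8 tested genes had an unadjusted p under 0.05 (edgeR), where the full fit had 2. The same count of 1 held without knockout NY, control QT or knockout QT. In TPM, the RM ratio of Srgap2 was 0.934, and the other 3 prefixes kept the higher value in the knockout.

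Srgap1, a GAP first described as a partner of Robo that acts on Cdc42, had the reverse sign. Control libraries held 213 (NX), 169 (NY), 209.9 (QT) and 217 CPM (RM). Those of the knockout held 160.4 (NX), 121 (NY), 206 (QT) and 188 CPM (RM). The knockout was lower within every prefix, by as little as a ratio of 0.982 (QT) and as much as 0.716 (NY), and the groups overlapped through the low NY control library. The means were 202 ± 22.4 and 169 ± 37.0 CPM (SD, n = 4 each), with a log2 fold change of -0.26 (SE 0.21, 95% interval -0.71 to 0.19; unadjusted p = 0.23 in edgeR).

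With Srgap2 and Srgap1 on opposite sides, their ratio separated the genotypes per length. In TPM, Srgap2 over Srgap1 was 0.326 (NX), 0.836 (NY), 0.480 (QT) and 0.655 (RM) in control libraries. It was 0.864 (NX), 1.74 (NY), 0.852 (QT) and 0.907 (RM) in knockout libraries. The lowest knockout ratio, 0.852, lay just above the highest control ratio, 0.836, and in CPM the ratios overlapped (up to 0.906 in control and down to 0.838 in knockout libraries). This ratio was looked at after the values of both genes were known and was not tested.

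Srgap3, also called WRP for its binding to WAVE-1, was the most abundant of the 9 genes. Control libraries held 425 (NX), 573 (NY), 604 (QT) and 566 CPM (RM). Those of the knockout held 531 (NX), 550.5 (NY), 676 (QT) and 573 CPM (RM). The groups overlapped, with the NX control library lowest. The means were 542 ± 79.6 and 582 ± 64.3 CPM (SD, n = 4 each), with a log2 fold change of 0.10 (SE 0.19, 95% interval -0.32 to 0.52).

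**Figure D4:**
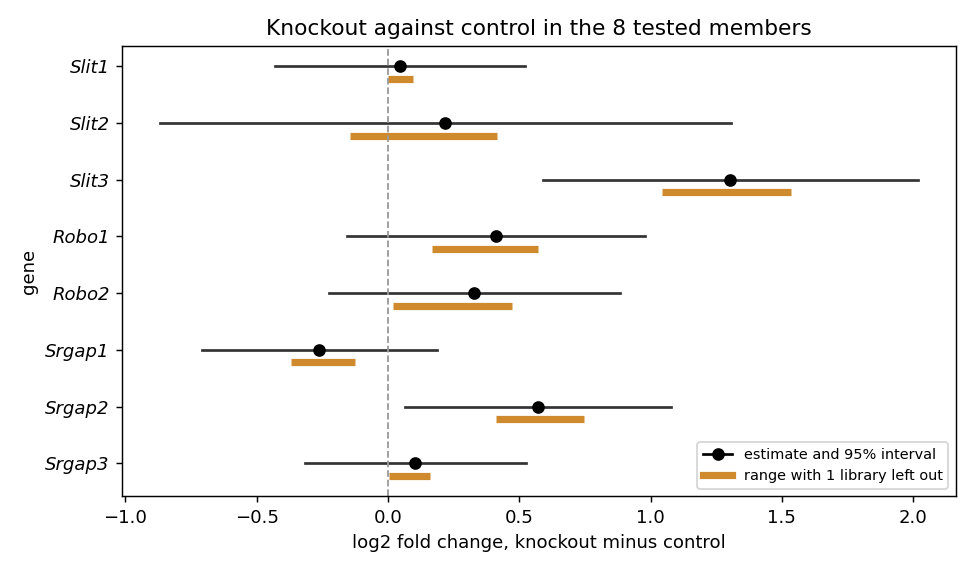
Log2 fold change of knockout against control (horizontal axis) for the 8 tested genes, with the 95% interval as a black line and, in orange, the range of estimates when 1 library is left out. The intervals of Slit3 (0.59 to 2.02) and Srgap2 (0.06 to 1.08) lie above 0 before adjustment over all genes, and the orange bar of Slit2 crosses 0.

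Levels per length ordered the family in a similar way in both genotypes. In control libraries the mean TPM was 185 ± 24.7 for Srgap3, 96.8 ± 28.01 for Robo2, 69.0 ± 24.6 for Robo1, 56.5 ± 11.5 for Srgap1 and 30.6 ± 6.17 for Srgap2 (SD, n = 4). The ligands followed at 10.6 ± 4.60 TPM for Slit3, 8.96 ± 1.28 for Slit1 and 5.54 ± 3.12 for Slit2, and Robo3 was last at 0.358 ± 0.676. By their means, Robo1, Robo2 and the srGAPs thus stood above every ligand. Among control neighbours in this order, Srgap3 and Robo2, Srgap1 and Srgap2, and Srgap2 and Slit3 did not overlap, while Robo2 and Robo1, Robo1 and Srgap1, Slit3 and Slit1, Slit1 and Slit2, and Slit2 and Robo3 did. In knockout libraries the order was Srgap3 (195 ± 53.7), Robo2 (115 ± 72.9), Robo1 (92.7 ± 49.5), Srgap2 (45.6 ± 11.4), Srgap1 (44.3 ± 13.3), Slit3 (26.9 ± 11.8), Slit1 (8.98 ± 2.13), Slit2 (6.86 ± 1.67) and Robo3 (0.0575 ± 0.0903 TPM). There only the neighbours Slit3 and Slit1, and Slit2 and Robo3, did not overlap. Srgap2 and Srgap1 changed places by their means only, which were 1.03-fold apart. Srgap2 lay above Srgap1 in 1 of the 4 knockout libraries, that of prefix NY.

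**Figure D5:**
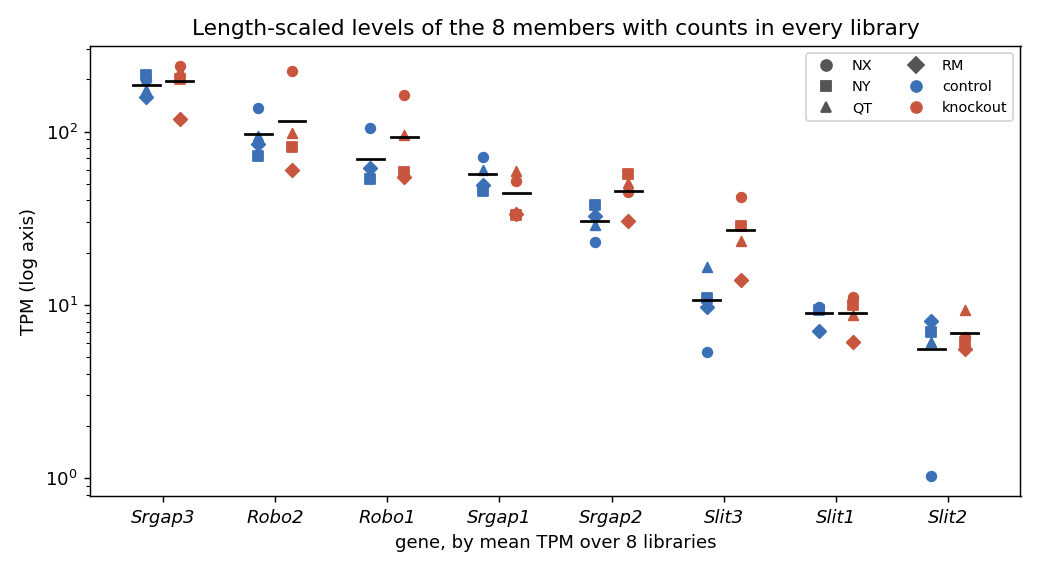
TPM of the 8 genes with counts in every library (vertical log axis), ordered by mean over 8 libraries, in control (blue) and knockout (red) libraries, with the group mean as a black line. Srgap3 lies highest (means 185 and 195 TPM), and Slit3 is the ligand whose means lie farthest apart (10.6 and 26.9 TPM).

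The gene length that RSEM reports is a mean over transcripts weighted by their share in a library, and so moves with the mix of transcripts. Slit1 and Slit3 have 1 transcript each in the files, so it could not move. Limma called 0% of 8503 genes with a varying length at a Benjamini-Hochberg adjusted p under 0.05, against 306 at an unadjusted p under 0.05, and of the 6 tested here none had an unadjusted p under 0.05. The smallest p belonged to Robo2, with 7 transcripts in the files and a weighted length of 4058 ± 193 bases in control and 4313 ± 161 bases in knockout libraries (SD, n = 4 each; limma, unadjusted p = 0.0759). The weighted length of Slit2, with 8 transcripts, ran from 5903 to 8327 bases over the libraries, and that of Srgap3, with 3, from 4794 to 6869 bases. Fractional expected counts, which arise where RSEM shares a fragment among several places, occurred in 8 libraries for Srgap3, in 5 for Srgap2 and in 1 for Slit1, and those values depend on how the fragments were shared.

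The genes around the pathway were read from lists of 53 genes, 50 of them tested, which were also chosen with earlier results of these data known. edgeR called 0 of the 50 at a Benjamini-Hochberg adjusted p under 0.05 (0.0353% of all genes), and 4 had an unadjusted p under 0.05 (3.62% of all genes), 1 higher and 3 lower. Fitted values were positive for 21 and negative for 29, with a median log2 fold change of -0.04. Among 9 tested receptors, co-receptors and ligands, 1 was fitted higher and 8 lower. Dcc, the netrin receptor whose attractive signal Robo can silence, stood at 261 (NX), 237 (NY), 239.8 (QT) and 257 CPM (RM) in the controls, against 89.5 (NX), 60.4 (NY), 144 (QT) and 95.01 CPM (RM) in knockout libraries. The groups lay far apart, at means of 249 ± 12.1 and 97.3 ± 34.9 CPM (SD, n = 4 each). Its log2 fold change was -1.36 (SE 0.25), and edgeR gave an adjusted p of 0.126, where DESeq2 gave 0.000429 (adjusted). Sdc1, a heparan sulphate core protein, stood at 10.4 ± 2.73 and 5.16 ± 2.90 CPM (unadjusted p = 0.0567, edgeR).

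Among the 8 heparan sulphate enzymes, 3 were fitted higher and 5 lower. Hs6st2, a sulphotransferase that modifies these chains, stood at 16.49 (NX), 16.3 (NY), 12.7 (QT) and 14.0 CPM (RM) in control libraries and at 61.9 (NX), 22.3 (NY), 30.9 (QT) and 23.3 CPM (RM) in knockout libraries. The groups did not overlap in CPM, and the NX knockout library was the highest, as for Slit3. In TPM they did overlap: the RM knockout library, at 6.37 TPM, lay below the NX control library, at 8.38 TPM. The log2 fold change of Hs6st2 was 1.22 (SE 0.34; edgeR, unadjusted p = 0.0034, adjusted p = 0.797), and 0.77 without the NX knockout library. Hs2st1, another sulphotransferase of these chains, stood at 102 ± 5.42 and 135 ± 34.0 CPM (unadjusted p = 0.0721, edgeR). Of 9 tested genes of receptor trafficking and turnover, 4 were fitted higher and 5 lower. Clstn1, a calsyntenin that carries vesicles along axons, stood at 118 ± 13.8 and 81.2 ± 16.3 CPM, without overlap in CPM but with overlap in TPM. Its log2 fold change was -0.54 (SE 0.21; edgeR, unadjusted p = 0.022). Nedd4l, a ubiquitin ligase, stood at 399 ± 69.4 and 464 ± 76.9 CPM.

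The 16 cytoplasmic partners of Robo divided evenly, with 8 fitted higher and 8 lower. Clasp1, which binds the growing ends of microtubules, stood at 477 ± 53.3 and 356 ± 36.0 CPM, without overlap in CPM but with overlap in TPM. Its log2 fold change was -0.42 (SE 0.18; edgeR, unadjusted p = 0.0386). Evl, an actin regulator of the Ena/VASP family, stood at 145 ± 46.8 and 102 ± 17.5 CPM (unadjusted p = 0.0514, edgeR). Of the listed srGAP partners, Wasf1, which encodes WAVE-1, stood at 67.7 ± 16.9 and 77.4 ± 24.6 CPM. Homer1, a scaffold of the postsynaptic density, stood at 31.1 ± 9.71 and 35.7 ± 9.24 CPM.

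Likeness was described for the gene with the smallest p and for the most abundant one, as the Pearson correlation of log2 CPM over the 8 libraries, among the 9359 tested genes whose average log2 CPM reached 3. These points share genotype, title prefix and depth, and no test was made. The genes named were picked for the highest of 9359 correlations over 8 libraries, and such picks run high through the selection itself. The profile of Slit3 was like those of Angpt1 (0.950) and Arid5b (0.933). That of Srgap3 was most like those of Enah (0.982), Tbr1 (0.953) and Nav3 (0.951). Enah, an Ena/VASP protein, is among the listed partners of Robo, and Tbr1 is a pallial neuron marker.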

How the data were processed

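Trimmomatic 0.33, Bowtie2, RSEM 1.2.22 and the build mm10 are named in the submitters' processing notes. For the annotation release, nothing is given in the sources used here. The deposited values are, per the file headers, RSEM expected counts (estimated, so not always whole), TPM and FPKM (not used here), and gene lengths weighted by transcript share. Matrix and sample files agreed exactly in 16 columns. The cDNA kit does not mark strand, and fragments carry no molecular identifiers.

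Rounded expected counts were tested with edgeR 4.0.16 in R 4.3.3 (filterByExpr, TMM, quasi-likelihood, genotype as the single term), with Benjamini-Hochberg adjustment over 14157 tested genes. CPM used kept library sizes and TMM factors. Standard errors came from the quasi-likelihood F. Log2 weighted length was tested with limma 3.58.1 in 8503 genes. DESeq2 1.42.0, limma-voom, limma-trend on log2 of TPM plus 1 or 0.1, other filters and factors, a prefix block and left-out libraries were alternatives. The procedure was tested on simulated counts. Symbols were matched to GENCODE M21 for positions and to RefSeq for promoters, and the authors' transcript models may differ from both.

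The genes and lists were chosen with earlier results of these data known. Named genes are the 9 members, Tshz1, the called genes or else the 2 smallest p of each pathway list, the highest gene of each marker list, and the 3 genes most like 2 members. Some items that this rule names are not reported here.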

Additional observations from a re-analysis of the deposited data

Results flagged for a closer look

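In 18 groups of 4 libraries (9 genes in each genotype), the highest or lowest library was set against the other 3, a check that chance fails about 1 time in 20. Robo3 in the QT control library stood at 3.21 CPM, far above the other control libraries, which ran from 0 to 0.148 CPM. Srgap1 in the NY control library stood at 169 CPM, below the other control libraries, which ran from 209.9 to 217 CPM. The causes were not tested.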

How the results depend on the processing

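Under all 21 alternatives 0 of the 8 tested genes of the family were called, and all but Slit1 and Slit2 kept their direction. Slit1 turned to -0.0092 without composition factors, to -0.0145 on log2 of TPM plus 1 and to -0.0181 on log2 of TPM plus 0.1. Slit2 turned to -0.0193 without both NX libraries and ranged from -0.15 to 0.41 with single libraries left out, while it was 0.72 by limma-voom, 0.61 on log2 of TPM plus 0.1 and 0.53 with the replicate block. Of all genes, 5 were called by edgeR, 9 without composition factors, 19 without a filter, 39 by DESeq2, 2 by limma-voom and 10 on log2 of TPM plus 1. Leaving out 1 library gave 0 to 5 calls, and 0 without control NX, QT or RM or knockout NY or QT (edgeR, 559, 440, 716, 597 and 328 genes at an unadjusted p under 0.05). Without both libraries of a prefix the number was 3 (NX), 0 (NY), 0 (QT) and 0 (RM), beside 807, 430, 262 and 470 at an unadjusted p under 0.05. The log2 fold change of Tshz1 ran from -2.55 to -2.12 with single libraries left out, and the call was also lost on log2 of TPM plus 0.1 (-2.37) and without both NY (-2.33), QT (-2.16) or RM (-2.18) libraries. Weighted length gave 0 to 3 calls with single libraries left out, 0 of them in the family. The cause of these losses was not tested, though left-out fits hold fewer libraries.

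The labels do not explain the title prefixes, so the main fit did not treat them as pairs, and its p-values ignore any pairing. Deviations of control and knockout from their group means correlated by 0.385 (NX), 0.303 (NY), 0.0658 (QT) and 0.450 (RM). Of the control libraries, 4 of 4 correlated best with their own prefix, a hint of pairing from the data alone. With the prefix as a replicate block, 28 genes were called, 0 of them of the family, with an adjusted p of 0.199 for Slit3 and 0.256 for Srgap2 (edgeR), and Dcc was among the called genes (adjusted p 0.0155). At an unadjusted p under 0.05 this fit had 3 of the family, Slit3, Srgap2 and Robo1, beside 1013 of all tested genes. Depth limits Robo3 most, since 3 counts equal up to 0.545 CPM.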
